A study of Mus musculus with 4 samples.

Results

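Small intestinal PDGFRαhi fibroblasts (FB) are mesenchymal stromal cells (MSC) with high levels of PDGFRα, a receptor for platelet-derived growth factors. They were taken here as the cells of the 2 small intestinal libraries with at least 500 genes, at least 1000 unique molecular identifiers (UMIs, 1 per captured transcript) and at most 10% mitochondrial UMIs that held at least 1 UMI for 3 or more of the 6 genes Pdgfra, F3, Sox6, Foxl1, Bmp7 and Tmem158. Cells with a UMI for 2 or more of the endothelial genes Pecam1 and Cdh5, the leukocyte gene Ptprc and the plasma cell gene Jchain were left out. The rule kept 193 of 1834 cells in replicate 1 (10.5%, exact 95% interval 9.16 to 12%) and 1358 of 15263 cells in replicate 2 (8.90%, 8.45 to 9.36%), together 1551 of 17097 small intestinal cells and of 32216 cells in the series. The intervals cover counting error only.

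FB of this kind form a sheet directly under the gut epithelium. Such subepithelial cells are known as a source of bone morphogenetic proteins (BMPs), which favour epithelial differentiation, and of WNT ligands, while BMP antagonists and R-spondins, which sustain crypt stem cells, are typically made by FB around and below the crypts. They are also often called myofibroblasts, because they can hold smooth muscle actin.

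The cells came from untreated C57BL6/Nrj mice aged 8 to 10 weeks, with 3 female mice pooled in each of 2 independent experiments. Muscle layer and epithelium were removed, and live Itgb1+ cells negative for CD45, Ter119, CD31, EpCAM, L1CAM and BP3 were sorted before droplet sequencing with a 3′ or 5′ kit. Each intestine has 2 libraries, and no source used here ties a small intestinal library to a colonic one, so p-values measure the spread between 2 libraries of pooled mice per intestine. All barcodes, before filtering, held 14341443 and 45640122 UMIs in the small intestinal libraries and 22076000 and 52269372 in the colonic ones. The PDGFRαhi FB held 1766038 and 3915620 UMIs, with medians of 9446 and 2422 per cell against 6514 and 2816 in the other cells. The small intestinal libraries shared 2 cell barcodes with each other, and 8 and 69 with the colonic library of the same replicate number.

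The members were chosen by the measured UMIs of these 6 genes, so the levels of the 6 are a description. Pdgfra stood at 1868 and 1625 UMIs per 1000000 UMIs of the group (CPM) in the members of replicates 1 and 2 and at 152 and 229 CPM in all other small intestinal cells. Sox6, a transcription factor, stood at 259 and 549 CPM against 2.19 and 6.26 CPM. Tmem158 stood at 949 and 764 CPM against 6.80 and 16.0 CPM. Members with exactly 3 markers numbered 34 and 629, with Pdgfra at 362 and 1490 CPM. Cells with 2 markers, just outside the rule, numbered 246 and 1207 and held Pdgfra at 272 and 554 CPM. Sox6 was at 36.2 and 448 CPM just inside and at 3.71 and 60.4 CPM just outside. Bmp7 and Tmem158 were also higher just inside in both libraries. F3 went the other way, at 123 and 114 CPM just inside and 127 and 200 CPM just outside. Foxl1 was at 14.5 CPM just inside and 3.30 CPM just outside in replicate 1, and nearly level in replicate 2. The step at the rule was therefore not shared by all 6 markers. Requiring 2 markers gave shares of 23.9 and 16.8%, and requiring 4 gave 8.67 and 4.78%. When each cell was thinned to 1000 UMIs, the rule kept 4.36 and 3.98%. In the colon the same rule kept 932 of 2431 cells (38.3%, interval 36.4 to 40.3%) and 3571 of 12688 (28.1%, 27.4 to 28.9%), and 10.2 and 7.48% after thinning. The bar plot of markers per cell shows that most cells of both libraries held 0 or 1 marker.

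**Figure D1:**
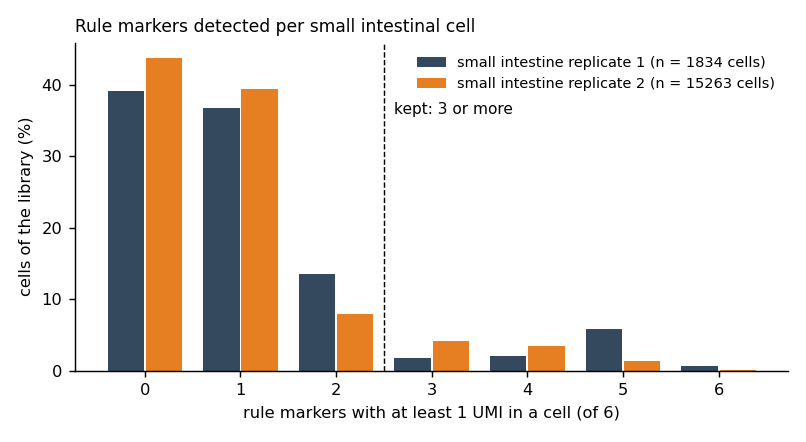
Share of QC-passing small intestinal cells (%, vertical axis) by the number of rule markers with at least 1 UMI (horizontal axis), with bars for replicate 1 (n = 1834 cells) and replicate 2 (n = 15263 cells). The dashed line marks the rule, with 193 and 1358 cells to its right. Replicate 1 has its highest bar among the kept cells at 5 markers (108 cells) and replicate 2 at 3 markers (629 cells).

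The members were not uniform, and some carried genes that lead other FB. Fbln1, C3 and Sfrp1 together reached 1000 CPM or more in 25 members of replicate 1 (13.0%) and 311 of replicate 2 (22.9%). In replicate 1 these 25 cells held Pdgfra at 265 CPM, Sox6 at 28.6 CPM and the smooth muscle actin gene Acta2 at 319 CPM, against 2125, 296 and 4716 CPM in the remaining 168 members. In replicate 2 the 311 cells held Pdgfra at 935 CPM, Sox6 at 269 CPM and Acta2 at 1244 CPM, against 2036, 715 and 3047 CPM in the remaining 1047. Scrublet called 160 of the 311 cells doublets (51.4%), against 9 of the remaining 1047 (0.860%), and their median depth was 4620 UMIs against 2227. In replicate 1 scrublet called 2 doublets in the whole library and 0 among the members. Colonic members held 447 (48.0%) and 1131 (31.7%) such cells. Results are therefore also given for the remaining members, a split chosen after the cells had been seen. No such cells were removed from the other cells. Larger falls of genes that the removed members carried therefore follow in part from the split.

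Markers of other cell types were counted in the members and in all other small intestinal cells. Epithelial markers summed to 1.13 and 3.32 CPM, with 8 and 4 of 10 genes at 0, against 260 and 3.5 CPM in the other cells. The 8 endothelial markers summed to 14.2 and 16.9 CPM, with 6 and 1 at 0, against 1410 and 20.7 CPM. The 8 immune markers summed to 282 and 20.9 CPM against 1354 and 37.0 CPM, with none at 0 in the members, and the 6 plasma cell markers to 263 and 240 CPM against 6969 and 1072 CPM. Those totals set the other cells of replicate 1 apart, and their part in the tests against all other cells was not tested. The test against other FB is therefore also given for some genes and lists whose calls it changed. The 6 SMC markers (smooth muscle cells) summed to 395 and 399 CPM against 398 and 148 CPM, and the 8 pericyte markers to 1178 and 1028 CPM against 830 and 833 CPM. Markers of CD81+ FB summed to 309 and 464 CPM in the members and to 1407 and 1510 CPM in the other cells.

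Against all other small intestinal cells, 780 of 13847 genes were higher in PDGFRαhi FB (5.63% of genes tested) and 1291 were lower (9.32%), at an adjusted p under 0.05 in edgeR's quasi-likelihood test on UMIs summed per library. Limiting the other cells to FB gave 1725 higher (13.2% of 13093) and 2306 lower (17.6%). With the remaining members only, 1071 genes were higher (7.78% of 13768) and 1895 lower (13.8%). Without replicate 1 the test called 531 genes and without replicate 2 it called 1005. With 2 markers as the minimum it called 136, and with no library term 139. In these sums, more cells with a transcript and more transcripts per cell cannot be told apart. A log2 fold change below is that of members over the named comparison cells, and its median over all genes tested was -0.05. Statements below that libraries of 2 groups did not overlap describe genes already called, and the share of all genes without overlap was not counted.

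Of 9 BMP and activin ligand genes tested, 4 rose in PDGFRαhi FB and 0 fell, with a median log2 fold change of 0.95. Bmp3 (chromosome 5, 98854415 to 98884396, mm10), an atypical ligand that can oppose other BMPs, stood at 172 and 185 CPM in the members, 0.827 and 4.11 CPM in other FB and 0.648 and 4.22 CPM in all other cells. Both member libraries lay far above both comparison libraries, with a log2 fold change of 5.87 (SE 0.65, adjusted p = 0.0143) over all other cells and 5.55 over other FB (adjusted p = 8.71e-05). Bmp5, a further BMP ligand, stood at 479 and 390 CPM against 25.3 and 43.2 CPM, a rise of 3.42 (SE 0.27, adjusted p = 0.00268). Inhba and Inhbb encode the β subunits of activins. Inhba stood at 49.3 and 70.5 CPM against 4.21 and 7.67 CPM and rose by 3.07 (SE 0.20, adjusted p = 0.00159). Inhbb stood at 94.0 and 72.5 CPM against 8.42 and 1.75 CPM and rose by 4.15 (SE 0.73, adjusted p = 0.0373). Bmp2 and Bmp4, ligands that act on the epithelium, did not pass. Bmp4 stood at 475 and 505 CPM in the members and at 346 and 466 CPM in other FB, and Bmp2 at 144 and 191 CPM against 149 and 170 CPM.

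The antagonists split in direction. Of 13 tested, 2 rose and 2 fell, with a median of -1.77. Chrd, encoding the BMP antagonist chordin, stood at 158 and 102 CPM against 19.8 and 22.8 CPM and rose by 2.29 (SE 0.29, adjusted p = 0.00958). Fst, encoding the activin-binding protein follistatin, stood at 9.63 and 6.38 CPM against 2.59 and 2.12 CPM and rose by 1.44 (adjusted p = 0.0482), but missed the threshold in the remaining members (1.60, adjusted p = 0.0666). Grem1, the BMP antagonist of crypt-base stroma, stood at 56.1 and 135 CPM in the members and at 283 and 436 CPM in all other cells. It fell by 2.25 (adjusted p = 0.0203). In the remaining members Grem1 was at 13.1 and 6.93 CPM, and its log2 fold change was -5.57 (adjusted p = 0.0162). The removed members held Grem1 at 323 and 351 CPM, so part of this larger fall follows from the removal. Bambi, a decoy receptor, stood at 18.7 and 12.3 CPM against 54.8 and 33.9 CPM (log2 fold change -1.77, adjusted p = 0.00205). Of 12 BMP receptors and response genes, Id2, a transcriptional regulator induced by BMPs, rose by 1.66 (adjusted p = 0.00409), at 323 and 497 CPM against 104 and 108 CPM, and 3 fell. Without replicate 1, Inhbb, Chrd, Fst and Grem1 no longer passed (5.12, 1.91, 1.34 and -1.93), and without replicate 2 Inhbb, Fst and Grem1 did not (3.20, 1.61 and -2.61). Bmp3 and Inhbb also missed the threshold when colonic replicate 1 or 2 was left out (5.89 and 5.89 for Bmp3, 4.16 and 4.14 for Inhbb), in a fit where both intestines share 1 estimate of the spread.

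Wnt5a and Wnt4 rose in PDGFRαhi FB, while Wnt2b, Rspo2 and Rspo3 fell. Of 8 WNT ligands tested, 2 rose and 1 fell (median -0.73). Wnt5a, best known for signalling without β-catenin, stood at 164 and 187 CPM in the members, 11.8 and 26.0 CPM in other FB and 8.67 and 26.3 CPM in all other cells, and rose by 3.18 (SE 0.41, adjusted p = 0.0141). Wnt4 stood at 147 and 274 CPM against 13.9 and 69.3 CPM in all other cells and rose by 2.35 (SE 0.37, adjusted p = 0.0202). Wnt2b, a ligand that can act through β-catenin, stood at 9.63 and 5.62 CPM against 49.9 and 19.2 CPM and fell by 2.33 (adjusted p = 0.0178). The groups did not overlap for any of these 3 genes.

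Of 11 WNT inhibitors and R-spondins tested, 0 rose and 6 fell, with a median of -2.10. Rspo3, an R-spondin that amplifies WNT signalling in crypts, stood at 26.0 and 49.8 CPM against 89.3 and 123 CPM and fell by 1.77 (SE 0.27, adjusted p = 0.0133). Rspo2 stood at 2.83 and 7.66 CPM against 16.4 and 22.2 CPM and fell by 2.10 (adjusted p = 0.0108). In the remaining members Rspo2 was at 0 and 0.408 CPM. Frzb, a secreted WNT-binding protein, stood at 10.2 and 8.94 CPM against 27.5 and 35.1 CPM and fell by 2.02 (adjusted p = 0.0112). Wif1, a secreted WNT inhibitor, went the other way without passing. It stood at 94.6 and 46.0 CPM in the members and at 0 and 0.912 CPM in all other cells (adjusted p = 0.0507), and the test against other FB called it (5.90, adjusted p = 0.0237). Without replicate 1, Wnt5a, Wnt2b, Frzb, Rspo2 and Rspo3 did not pass (2.58, -2.02, -2.22, -1.78 and -1.55), and without replicate 2 Wnt2b, Frzb and Rspo3 did not (-2.65, -1.71 and -2.05). Wnt4 missed the threshold without colonic replicate 1 (2.37) or 2 (2.35).

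Of 22 other growth factors tested, 2 rose and 6 fell (median -0.63). Fgf9, an FGF known from signalling between epithelium and mesenchyme in the embryo, stood at 44.7 and 87.1 CPM against 0.486 and 3.7 CPM and rose by 4.72 (SE 0.51, adjusted p = 0.00890). Fgf7 and Fgf10, FGFs that act on epithelium, were low. Fgf7 stood at 2.83 and 5.36 CPM against 24.2 and 18.6 CPM (log2 fold change -2.46, adjusted p = 0.00482), and Fgf10 stood at 2.26 and 2.55 CPM against 12.2 and 16.5 CPM (-2.87, adjusted p = 0.00336). The EGF receptor ligands Areg and Ereg also fell, Areg from 25.8 and 31.2 CPM in all other cells to 6.79 and 13.8 CPM in the members (-1.69, adjusted p = 0.0183). Ereg stood at 57.2 and 153 CPM against 158 and 389 CPM (-1.67, adjusted p = 0.00215). The Ereg ranges came close, since the replicate 2 members and the replicate 1 other cells were nearly level, and the difference is seen within each library. Without replicate 1 Fgf9 and Areg did not pass (4.31 and -1.42), and without replicate 2 Areg did not (-2.20). The plot of signalling genes shows these values by library.

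**Figure D2:**
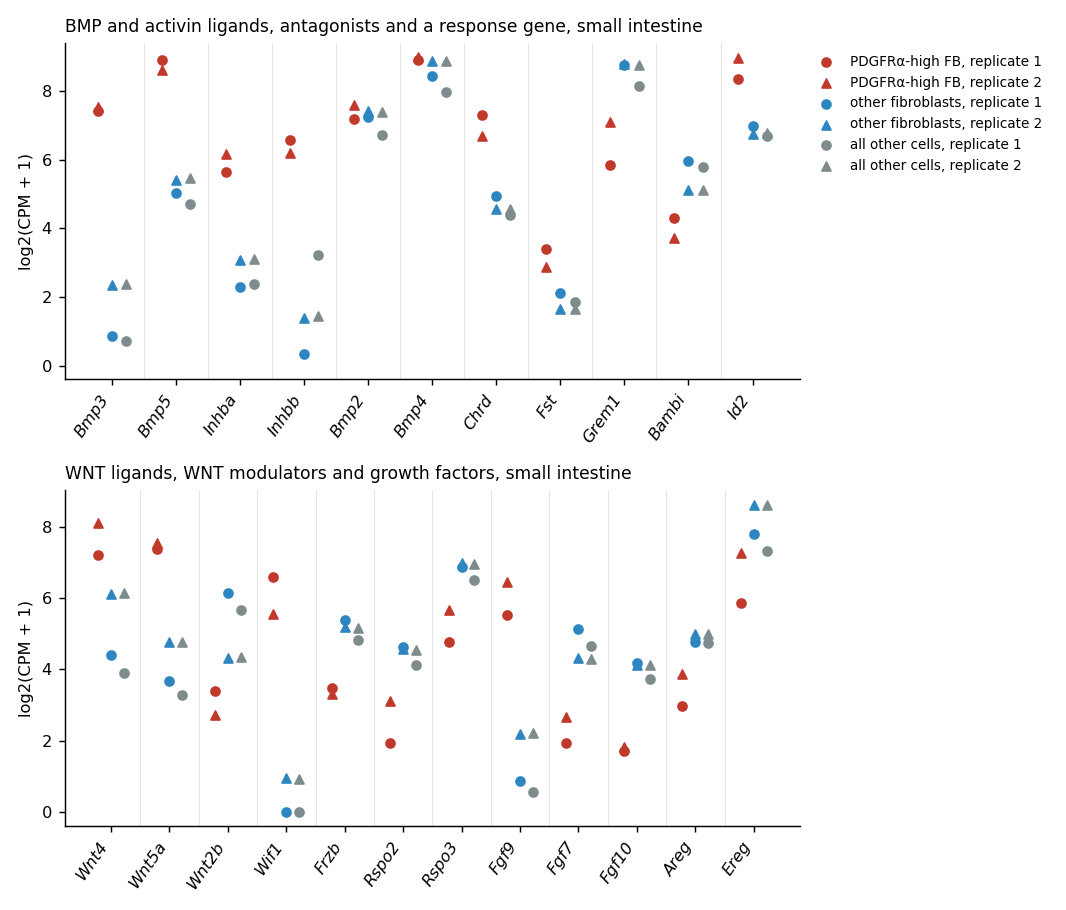
Summed UMIs as log2(CPM + 1) (vertical axis) for BMP and activin genes (upper panel) and WNT and growth factor genes (lower panel), in PDGFRα-high FB, other fibroblasts and all other cells of the small intestine, with circles for replicate 1 and triangles for replicate 2. Bmp3, Bmp5, Inhba, Inhbb, Wnt5a and Fgf9 lie higher in the members, Grem1, Rspo2, Rspo3, Fgf7 and Fgf10 lie lower, and Bmp2 overlaps with other fibroblasts.

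Of 12 genes of the hedgehog response, a pathway by which epithelium signals to the mesenchyme beneath it, 2 rose and 4 fell. Foxf2, a forkhead factor of gut mesenchyme, stood at 226 and 115 CPM against 44.1 and 42.4 CPM and rose by 1.62 (adjusted p = 0.00895). Its relative Foxf1 stood at 312 and 182 CPM against 147 and 114 CPM and rose by 0.61 (adjusted p = 0.0404). Of 29 other transcription factors tested, 6 rose and 8 fell. Sox4 and Sox11, members of 1 SOX subfamily, both rose, Sox4 with 253 and 334 CPM against 71.2 and 123 CPM (1.36, adjusted p = 0.00428) and Sox11 with 3.96 and 16.9 CPM against 0.324 and 0.863 CPM (3.84, adjusted p = 0.00462). Tbx2, a T-box factor, stood at 97.4 and 115 CPM against 21.0 and 37.2 CPM (1.62, adjusted p = 0.0181). Zeb1, a zinc finger factor of mesenchyme, stood at 123 and 203 CPM against 39.1 and 72.4 CPM (1.29, adjusted p = 0.00292), and Runx2 stood at 24.9 and 41.9 CPM against 12.8 and 20.5 CPM (0.74, adjusted p = 0.0315). Tcf21, a factor of visceral FB, stood at 593 and 174 CPM against 733 and 332 CPM and fell by 0.89 (adjusted p = 0.0259), a difference smaller than that between the libraries. Foxf1, Runx2, Tbx2 and Tcf21 missed the threshold without replicate 1 (0.43, 0.78, 1.37 and -1.18) and without replicate 2 (0.81, 0.69, 1.94 and -0.58). Sox11 also missed it without replicate 2 (3.30).

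PDGFRαhi FB were rich in transcripts of a contractile apparatus. Of 18 contractile genes tested, 10 rose and 3 fell against all other cells (median 1.24), and 15 rose and 1 fell against other FB (median 1.69, beside -0.01 over all genes). The rule for other FB limited Myh11 and Actg2, which are on this list, so part of that second count was built in. Acta2 stood at 4106 and 2374 CPM in the members, 106 and 166 CPM in other FB and 821 and 285 CPM in all other cells, and rose by 2.42 over all other cells (SE 0.29, adjusted p = 0.00854) and by 4.25 over other FB (adjusted p = 0.0109). Tagln, encoding the actin-binding protein transgelin, stood at 4829 and 3393 CPM against 71.6 and 121 CPM in other FB and 647 and 223 CPM in all other cells (3.14, SE 0.40, adjusted p = 0.0129). Myl9, a myosin light chain gene, stood at 1540 and 935 CPM against 318 and 132 CPM in all other cells (2.28, adjusted p = 0.00786). For these 3 genes every member library lay above every other library. Tpm2, a tropomyosin gene, stood at 690 and 753 CPM against 198 and 187 CPM (1.64, adjusted p = 0.00863), and Mylk, the kinase of myosin light chains, at 541 and 568 CPM against 206 and 221 CPM (1.11, adjusted p = 0.0456).

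The later smooth muscle genes were another matter. Myh11, the smooth muscle myosin heavy chain, stood at 292 and 322 CPM in the members against 2.20 and 9.97 CPM in other FB (5.18, adjusted p = 0.00505) and 137 and 47.9 CPM in all other cells, where it did not pass (1.67, adjusted p = 0.125). Actg2, the enteric smooth muscle actin, stood at 7.93 and 9.70 CPM in the members, above 0.551 and 1.13 CPM in other FB (2.96, adjusted p = 0.00689) and below 71.7 and 20.1 CPM in all other cells (-2.22, adjusted p = 0.0483). The rule for other FB allowed a UMI for at most 1 of a set of genes that held Myh11 and Actg2. Their low levels in other FB follow in part from that rule, so those tests give no support. Cnn1, encoding calponin, stood at 0 and 2.55 CPM in the members and at 1.38 and 0.995 CPM in other FB. Des, encoding desmin, stood at 88.3 and 55.7 CPM against 50.4 and 28.8 CPM in other FB (0.61, adjusted p = 0.00293) and 99.9 and 37.5 CPM in all other cells, where it did not pass (-0.07, adjusted p = 0.891).

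SMC were gated among the other cells by a UMI for at least 4 of the 6 markers Myh11, Actg2, Des, Cnn1, Hhip and Myocd, which gave 65 and 98 cells and whose levels of those 6 genes follow from the gate. They held Acta2 at 17018 and 10275 CPM and Tagln at 13298 and 9218 CPM, above the members in both libraries. Myh11 was at 3142 and 3046 CPM, Actg2 at 1774 and 1992 CPM and Cnn1 at 1264 and 1282 CPM. The same gate held 0 members of replicate 1 and 2 of replicate 2 (0.147%). These comparisons with gated cells were not tested. Without replicate 1, Tpm2, Myl9 and Mylk did not pass against all other cells (1.76, 2.57 and 1.11), and without replicate 2 Acta2, Tagln, Tpm2, Myl9 and Mylk did not (2.05, 2.62, 1.53, 2.00 and 1.12). Actg2 missed the threshold without colonic replicate 1 (-2.21) or 2 (-2.23) and in the remaining members (-2.18, adjusted p = 0.0544), where Cnn1 passed (-4.04, adjusted p = 0.0466). Cnn1 also passed without replicate 1 (adjusted p = 0.0258) or replicate 2 (adjusted p = 0.00234).

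Of 8 pericyte markers, 3 rose and 1 fell against all other cells. Kcnj8 and Abcc9, neighbouring genes on chromosome 6 (142564837 to 142571614 and 142587862 to 142702315, mm10), encode the pore and the regulatory subunit of an ATP-sensitive potassium channel of vascular mural cells. Abcc9 stood at 270 and 234 CPM in the members, 7.72 and 5.84 CPM in other FB and 9.15 and 6.53 CPM in all other cells, and rose by 4.76 (SE 0.23, adjusted p = 0.00122). Kcnj8 stood at 548 and 296 CPM against 13.8 and 5.57 CPM in other FB and 26.3 and 6.31 CPM in all other cells, and rose by 4.69 (SE 0.63, adjusted p = 0.0220). Both genes were low in SMC-gated cells, at 15.8 and 26.7 CPM for Abcc9 and 11.3 and 19.1 CPM for Kcnj8. Cspg4, the pericyte proteoglycan NG2, stood at 79.8 and 147 CPM against 17.7 and 49.8 CPM (1.57, adjusted p = 0.0160). A gate of at least 4 of the 8 pericyte markers, which include these 3 genes, held 65 members of replicate 1 (33.7%) and 103 of replicate 2 (7.58%), beside 72 and 53 other cells. The members' median depths of 9446 and 2422 UMIs differed in the same order as these shares, and the part of depth was not tested. Rgs5 and Notch3 did not share this direction. Over the list, 4 of the 8 markers were not called (median 0.13), and 4 and 2 of the 8 stood lower in the members of replicates 1 and 2. Rgs5 stood at 169 and 224 CPM against 647 and 675 CPM (-2.03, adjusted p = 0.0567), and passed as lower in the remaining members (-3.02, adjusted p = 0.0479) and without colonic replicate 1 (-2.02) or 2 (-2.04). Notch3, a Notch receptor of mural cells, stood at 4.53 and 0.766 CPM against 23.2 and 1.75 CPM and fell by 2.32 (adjusted p = 0.0480), but not against other FB (-0.78, adjusted p = 0.230). Kcnj8, Cspg4 and Notch3 missed the threshold without replicate 1 (5.30, 1.32 and -1.43) and without replicate 2 (4.10, 1.90 and -2.63). The plot of contractile and pericyte genes sets members, other FB and SMC-gated cells side by side.

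**Figure D3:**
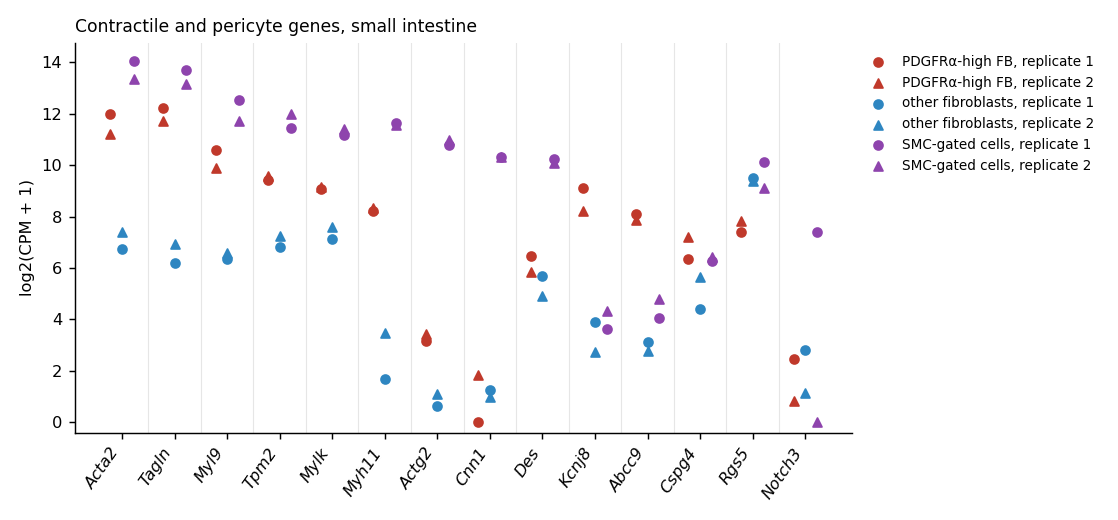
Summed UMIs as log2(CPM + 1) (vertical axis) for contractile and pericyte genes (horizontal axis) in small intestinal PDGFRα-high FB, other fibroblasts and cells gated on SMC markers, with circles for replicate 1 and triangles for replicate 2. Acta2, Tagln, Myl9 and Myh11 in the members lie between other fibroblasts and SMC-gated cells, Actg2 and Cnn1 lie far below SMC-gated cells, and Kcnj8 and Abcc9 lie above both.

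Basement membrane genes rose and fell in like numbers, with 6 higher and 5 lower of 26 tested (median 0.14). Col4a5 and Col4a6, collagen IV chain genes that lie side by side on opposite strands of the X chromosome (141475385 to 141689234 and 141165403 to 141474076, mm10), both rose. Col4a5 stood at 160 and 226 CPM against 5.91 and 12.9 CPM (4.12, SE 0.18, adjusted p = 0.00111), and Col4a6 stood at 40.8 and 58.0 CPM against 0.810 and 1.78 CPM (4.93, SE 0.20, adjusted p = 0.00111). The laminin genes Lama4 and Lamb1 rose by 1.58 (adjusted p = 0.00481) and 1.09 (adjusted p = 0.0109), and Lama1, at 4.53 and 5.62 CPM against 9.23 and 17.6 CPM, fell by 1.69 (adjusted p = 0.0184).

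Of 23 interstitial matrix genes, 2 rose and 10 fell (median -0.66). Col1a1, the main fibrillar collagen gene, stood at 2053 and 1548 CPM against 3131 and 3126 CPM and fell by 1.08 (adjusted p = 0.0295). Dcn, encoding the collagen-binding proteoglycan decorin, stood at 6876 and 8217 CPM against 12255 and 17824 CPM and fell by 1.25 (adjusted p = 0.0195). Eln, encoding elastin, stood at 103 and 242 CPM against 434 and 840 CPM and fell by 2.20 (adjusted p = 0.0167), and in the remaining members it was at 27.0 and 67.7 CPM. Col12a1, a collagen that binds to fibrils, rose from 69.7 and 105 CPM in all other cells to 565 and 654 CPM in the members (2.55, SE 0.15, adjusted p = 0.00122). Tnc, encoding tenascin C, stood at 486 and 259 CPM against 191 and 152 CPM (0.78, adjusted p = 0.0424), and did not pass against other FB (0.58, adjusted p = 0.0744). Of 18 matrix proteases and inhibitors, 0 rose and 10 fell (median -1.19). Lama1, Tnc, Col1a1, Dcn and Eln missed the threshold without replicate 1 (-1.89, 0.52, -1.26, -1.37 and -2.04) and without replicate 2 (-1.30, 1.07, -0.89, -1.11 and -2.35), and Lamb1 without replicate 1 (0.81).

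Genes of vitamin A handling moved in both directions, with 4 higher and 3 lower of 13 tested. Rbp4, which encodes the secreted retinol carrier, stood at 375 and 311 CPM against 10.4 and 16.2 CPM and rose by 4.41 (SE 0.24, adjusted p = 0.00126). Aldh1a1, an enzyme that makes retinoic acid, stood at 638 and 789 CPM against 32.6 and 93.6 CPM (3.39, SE 0.36, adjusted p = 0.00711), and Rdh10, which makes its substrate from retinol, stood at 174 and 382 CPM against 49.7 and 157 CPM (1.26, adjusted p = 0.00587). Bco1, which cleaves β-carotene to retinal, stood at 40.8 and 25.5 CPM against 0.405 and 0.962 CPM (5.09, SE 0.58, adjusted p = 0.00633). In all 4 genes both member libraries lay above both libraries of the other cells. Bco1 did not pass without replicate 1 (4.47).

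Of 24 axon guidance and neurotrophic genes, 6 rose and 11 fell. Ednrb, the endothelin receptor B, stood at 548 and 544 CPM against 26.5 and 26.2 CPM and rose by 4.10 (SE 0.24, adjusted p = 0.00159), with the 2 libraries of each group nearly equal. Edn3, an endothelin that binds this receptor, stood at 36.2 and 52.6 CPM against 5.02 and 6.71 CPM (2.65, adjusted p = 0.00460). Gdnf, a growth factor for enteric neurons, stood at 48.1 and 137 CPM against 6.80 and 17.7 CPM (2.64, adjusted p = 0.00516). Edn3 and Gdnf did not pass without replicate 1 (2.72 and 2.71) or without replicate 2 (2.57 and 2.55).

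Against other FB, 4 of 16 chemokines rose and 6 fell, and 8 of 25 cytokines and receptors rose and 8 fell. Against all other cells, 1 of 16 chemokines rose and 4 fell, and of 25 cytokines and receptors 5 rose and 5 fell. Il6 stood at 62.9 and 65.1 CPM in the members against 286 and 241 CPM (-2.30, adjusted p = 0.00126), and Il33, an alarmin, at 61.2 and 68.7 CPM against 124 and 154 CPM (-1.37, adjusted p = 0.00336). Ccl2, a chemokine for monocytes, stood at 193 and 193 CPM against 639 and 557 CPM (-1.90, adjusted p = 0.0161), and Cxcl13, a chemokine for B cells, at 42.5 and 48.5 CPM against 165 and 198 CPM (-2.27, adjusted p = 0.00198). In the remaining members all 4 were lower still, with log2 fold changes from -4.66 for Il6 to -2.02 for Il33. That split removed cells from the members alone. Il34 and Csf1, the ligands of the macrophage receptor CSF1R, both rose. Il34 stood at 273 and 144 CPM against 21.2 and 12.9 CPM (3.31, SE 0.14, adjusted p = 0.00111) and Csf1 at 346 and 322 CPM against 120 and 168 CPM (0.96, adjusted p = 0.0257). Cxcl14 stood at 331 and 176 CPM against 63.7 and 78.9 CPM (1.49, adjusted p = 0.0305). Cxcl14, Csf1 and Ccl2 did not pass without replicate 1 (0.91, 0.69 and -1.78), Ccl2 not without replicate 2 (-2.01), and Cxcl14 not without colonic replicate 1 (1.5) or 2 (1.49).

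Immediate early and heat shock genes, which tissue digestion is known to raise, fell in 11 of 20 cases and rose in 0. Of 13 Notch pathway genes, 0 rose and 5 fell, and of 11 cell cycle genes 0 rose and 1 fell. Against other FB, Jag1 rose and 6 fell of 10 Notch pathway genes tested. Of 11 cell cycle genes Ccnb2 and Cenpf then rose and 1 fell.

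Among the genes with the largest rises were several outside these groups. Bean1 stood at 139 and 119 CPM against 0.810 and 3.06 CPM (5.63, SE 0.53, adjusted p = 0.00784). Sv2b, a synaptic vesicle protein gene, stood at 52.7 and 50.6 CPM against 0.162 and 1.36 CPM (5.57, SE 0.56, adjusted p = 0.00625). Dio2 (chromosome 12, 90724552 to 90738438, mm10), the deiodinase that activates thyroid hormone, stood at 32.3 and 52.1 CPM against 0.243 and 1.45 CPM (5.36, SE 0.52, adjusted p = 0.00399). Each of these 3 genes stood at 2.85 CPM or less in the other FB of either library. Qprt, an enzyme of NAD synthesis, rose by 5.03, the mitochondrial reductase gene Marc1 by 4.93, the phospholipase gene Pla1a by 4.89, the metalloprotease gene Adam33 by 4.83 and Colq, the collagen tail of acetylcholinesterase, by 4.81, with adjusted p from 0.0015 to 0.00848. Qprt and Colq did not pass without replicate 1 (4.40 and 4.26).

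The largest falls included Sele, which encodes the endothelial adhesion molecule E-selectin. It had 0 UMIs in the members of both libraries against 212 and 85 in all other cells, at least 10.6-fold lower by a floor of 3 UMIs over both libraries. Tmem252 had 1 UMI in the members and 726 in all other cells, a ratio of 78.0 (exact interval 13.9 to 3084), and missed the threshold in the remaining members (adjusted p = 0.0686). The other named falls were Slpi, Spns2, Cmah, Plcb4, Cgref1, Hey1, Ism1, Atp1b1, Cyp4b1 and Bdnf. Several moved with the endothelial, immune and plasma cell totals of replicate 1, and the part of those cells was not tested. Slpi stood at 95.2 CPM in the other cells of replicate 1 and 2.05 CPM in those of replicate 2, and Cyp4b1 at 63.3 and 3.45 CPM. Against other FB, Slpi did not pass (-0.78, adjusted p = 0.416), while Sele (-8.11, adjusted p = 0.00581) and Ism1 (-4.28, adjusted p = 2.37e-05) did. Ism1, a secreted protein gene, stood at 0.566 and 0.511 CPM in the members and at 10.7 and 7.67 CPM in other FB. Without replicate 1, 11 of the 12 named falls missed the threshold, all but Ism1, at -8.44 for Sele to -1.66 for Slpi. Without replicate 2, Plcb4, Cgref1, Hey1, Ism1 and Bdnf did, at -9.04 for Cgref1 to -3.94 for Ism1, and Slpi also missed it without colonic replicate 1 (-5.58) or 2 (-5.56).

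Within the members, the remaining 168 and 1047 cells were clustered separately in each library, which gave 4 clusters each. These clusters are described without a test, since the genes that define them also formed them. A group of 31 cells in replicate 1 (18.5%) and 243 in replicate 2 (23.2%) shared 9 of 20 leading genes. It held Slitrk6 at 231 and 195 CPM against 23.0 and 36.8 CPM in the other members, and Col6a4, a collagen VI chain gene, at 135 and 82.3 CPM against 2.38 and 3.63 CPM. Aldh1a3, a retinaldehyde dehydrogenase gene, stood there at 683 and 358 CPM against 107 and 107 CPM, Rbp4 at 937 and 806 CPM against 332 and 296 CPM, and Ednrb at 1500 and 1204 CPM against 456 and 540 CPM. The same cells were low in Igfbp5, an insulin-like growth factor binding protein gene, with 0 and 155 CPM against 873 and 1352 CPM, and in Wif1, with 0 and 21.1 CPM against 132 and 69.4 CPM.

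A second group of 72 (42.9%) and 350 cells (33.4%) held Wif1 at 180 and 93.7 CPM against 61.3 and 41.7 CPM, the interferon-induced chemokine gene Cxcl9 at 61.0 and 176 CPM against 14.5 and 25.1 CPM, and Dio2 at 44.9 and 102 CPM against 32.3 and 49.7 CPM. Its 2 libraries shared only 2 of 20 leading genes. The third group, 27 (16.1%) and 309 cells (29.5%), was led by genes of acute activation and shared 13 of 20. Cxcl1, a neutrophil chemokine gene, stood at 2789 and 1494 CPM against 325 and 238 CPM, and the stress factor Atf3 at 992 and 1070 CPM against 152 and 211 CPM. The fourth cluster of replicate 1 (38 cells, 22.6%) was led by Cd74 at 773 CPM against 41.2 CPM and held the macrophage gene C1qa at 81.8 CPM against 4.47 CPM, while the fourth of replicate 2 (145 cells, 13.8%) held Cd74 at 3.05 CPM against 3.76 CPM. Pdgfra lay between 1411 and 2290 CPM and Acta2 between 2974 and 5422 CPM in all 8 clusters. The heat map of clusters shows which genes repeat between the libraries.

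**Figure D4:**
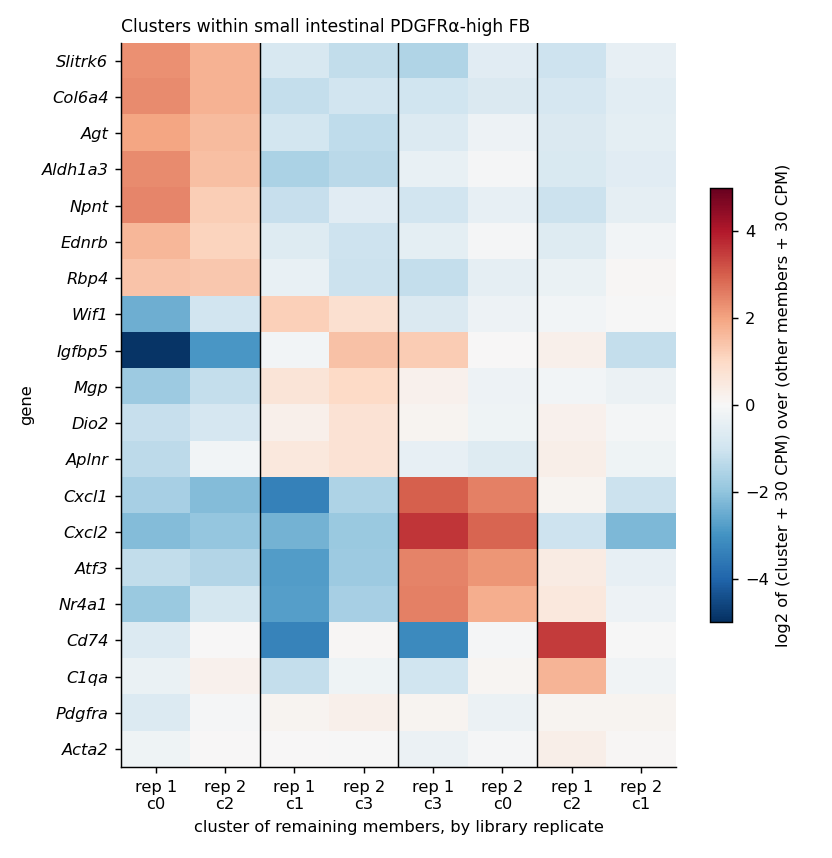
Heat map of the log2 ratio of summed CPM (with 30 CPM added) in each cluster over the other remaining PDGFRα-high FB of the same library (colour), for 20 genes (rows) and 4 clusters in each replicate (columns, paired by their leading genes, the last pair being the clusters left over). Slitrk6, Col6a4 and Aldh1a3 are high in the first pair, Cxcl1, Cxcl2, Atf3 and Nr4a1 in the third pair, and Pdgfra and Acta2 vary little.

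PDGFRαhi FB of the small intestine were then set against the colonic cells that met the same rule, to ask which of their genes depend on the intestine. Of 12213 genes, 114 passed (0.933%), with 55 higher in the small intestine (0.45% of genes tested) and 59 lower (0.483%). Passing here took an adjusted p below 0.05 together with a log2 difference of more than 1.5. With the remaining members of both intestines 198 of 11354 passed (1.74%), of which 86 were higher (0.757%) and 112 lower (0.986%). Leaving out small intestinal replicate 1 or 2 left 25 and 4 genes, and leaving out colonic replicate 1 or 2 gave 304 and 209. The median log2 fold change of small intestine over colon was -0.02 over all genes tested. The Cell Ranger version named in the file headers changed between replicates 1 and 2 in both intestines, so each version covers 1 library per intestine.

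Homeobox genes, which pattern the gut along its length, passed in both directions. Hoxc8 stood at 73.6 and 60.8 CPM in the small intestine and at 0.473 and 0.536 CPM in the colon, a log2 fold change of 6.86 (SE 0.36, adjusted p = 0.0207). Hoxc4 stood at 45.9 and 49.8 CPM against 0.284 and 0.775 CPM (6.24, SE 0.52, adjusted p = 0.0242), and Hoxc5 had 109 UMIs against 2 (ratio 262, exact interval 70.9 to 2194, adjusted p = 0.0455). In the other direction, Hoxa10, Hoxa11, Hoxa9 and Hoxd11 had 0 UMIs in small intestinal members and 70.4 and 57.7, 44.9 and 31.3, 23.8 and 23.1, and 14.9 and 19.8 CPM in the colonic ones. They were at least 119-fold, 69.2-fold, 44.2-fold and 33.9-fold lower, with adjusted p from 0.0232 to 0.0467. Pitx1, a homeobox factor of hindgut and hindlimb, stood at 1.13 and 2.81 CPM against 285 and 297 CPM (-7.18, SE 0.46, adjusted p = 0.0207).

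The other genes that were higher in the small intestine had varied roles. C7, a complement component, stood at 694 and 169 CPM against 1.23 and 0.596 CPM (8.78, SE 0.99, adjusted p = 0.0403). Hs3st6, a heparan sulfate sulfotransferase gene, stood at 63.4 and 65.1 CPM against 0 and 0.179 CPM, a ratio of 589 (exact interval 200 to 2869, adjusted p = 0.0232). Smoc2, a matricellular protein gene, stood at 566 and 394 CPM against 7.38 and 5.24 CPM (6.13, SE 0.38, adjusted p = 0.0207). Plbd1, Plcxd3 and Aplnr, the apelin receptor, had log2 fold changes of 7.75, 6.16 and 5.42 (adjusted p from 0.0207 to 0.0232). Dio2 stood at 32.3 and 52.1 CPM against 0.473 and 0.715 CPM (5.96, SE 0.48, adjusted p = 0.0232), and Inhbb at 94.0 and 72.5 CPM against 2.74 and 2.15 CPM (4.96, SE 0.32, adjusted p = 0.0207). Abcc9 stood at 270 and 234 CPM against 21.7 and 25.0 CPM (3.30, SE 0.28, adjusted p = 0.0242). Its neighbour Kcnj8 stood at 548 and 296 CPM against 67.1 and 44.8 CPM and did not pass (2.79, adjusted p = 0.0643), but did in 4 of 13 alternatives, among them the fit with replicate number as a block (2.75, adjusted p = 9.81e-07). Rgs5 was higher by 3.38 (adjusted p = 0.0288), so that 2 of 7 pericyte markers tested passed, with a median of 2.07.

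Several growth factor and related genes were lower in the small intestine. Fgf7 stood at 2.83 and 5.36 CPM against 171 and 126 CPM (-5.21, SE 0.41, adjusted p = 0.0232), and Fgf10 at 2.26 and 2.55 CPM against 32.3 and 18.6 CPM (-3.48, adjusted p = 0.0477). Fgf10 no longer passed with 2 markers as the minimum, doublets removed, at least 1000 genes per cell or thinning to 1000 UMIs. Fst stood at 9.63 and 6.38 CPM against 104 and 170 CPM (-4.28, SE 0.45, adjusted p = 0.0323), and Wnt5b at 12.5 and 8.94 CPM against 76.8 and 80.0 CPM (-3.03, SE 0.31, adjusted p = 0.0288). Il1rl1, the IL-33 receptor gene, stood at 0.566 and 1.79 CPM against 97.5 and 79.3 CPM (-6.13, SE 0.48, adjusted p = 0.0232). Bmp2 stood at 144 and 191 CPM against 781 and 725 CPM without passing (-2.29, adjusted p = 0.0523), but passed in 9 of 13 alternatives, among them the remaining members (-2.70, adjusted p = 0.0325) and the fit with replicate number as a block (-2.30, adjusted p = 1.14e-05). Nxf7, Stmn2, Lpar3, Sema3a, Tmem108 and Slco4a1 had 0 UMIs in the small intestinal members, with adjusted p from 0.0232 to 0.0487. Of these, Nxf7, at 105 and 63.5 CPM in the colon, was at least 151-fold lower, and Lpar3, a lysophosphatidic acid receptor gene at 17.0 and 17.2 CPM, at least 32.4-fold lower. Stmn2 stood at 79.2 and 59.6 CPM in the colonic members but at 1.11 and 10.0 CPM in the remaining ones, where it was not tested. Sema3a and Slco4a1 no longer passed with doublets removed.

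Several genes that rose in small intestinal PDGFRαhi FB did not pass between the intestines. Bmp5 stood at 479 and 390 CPM against 493 and 443 CPM (-0.23, SE 0.26, adjusted p = 0.931), Wnt5a at 164 and 187 CPM against 215 and 263 CPM (-0.58, SE 0.28, adjusted p = 0.553) and Bmp3 at 172 and 185 CPM against 77.2 and 85.7 CPM (1.00, SE 0.25, adjusted p = 0.179). Of 18 contractile genes 0 passed (median 0.67), among them Acta2 at 4106 and 2374 CPM against 2621 and 1430 CPM (0.56, SE 0.42, adjusted p = 0.796). Of 13 vitamin A genes and of 23 interstitial matrix genes 0 passed either. Over all genes tested 0.933% passed, so 0 in lists this short tells little about them. With the remaining members Aldh1a3 was higher and Dhrs3 lower of 11 vitamin A genes tested. Of 23 interstitial matrix genes Mfap5 and Postn were then lower. With 2 libraries per intestine, a p that misses the threshold does not show equal levels. Of the genes named in the comparison of intestines, Hoxc5, Hoxa9, Hoxd11, Abcc9, Rgs5, Fgf7, Fgf10, Fst, Wnt5b, Lpar3, Sema3a, Tmem108 and Slco4a1 did not pass without small intestinal replicate 1 (with 3.24 for Abcc9, 3.60 for Rgs5, -4.87 for Fgf7, -3.38 for Fgf10, -4.53 for Fst and -3.22 for Wnt5b). Without small intestinal replicate 2 the 4 genes that still passed were C7, Hoxc8, Plbd1 and Smoc2, and the adjusted p of the others ran from 0.0547 to 0.206. C7 did not pass without colonic replicate 2 (8.34), and Bmp2 and Kcnj8 passed without colonic replicate 1 (-2.30 and 3.04). The plot of both intestines shows the members' libraries gene by gene.

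**Figure D5:**
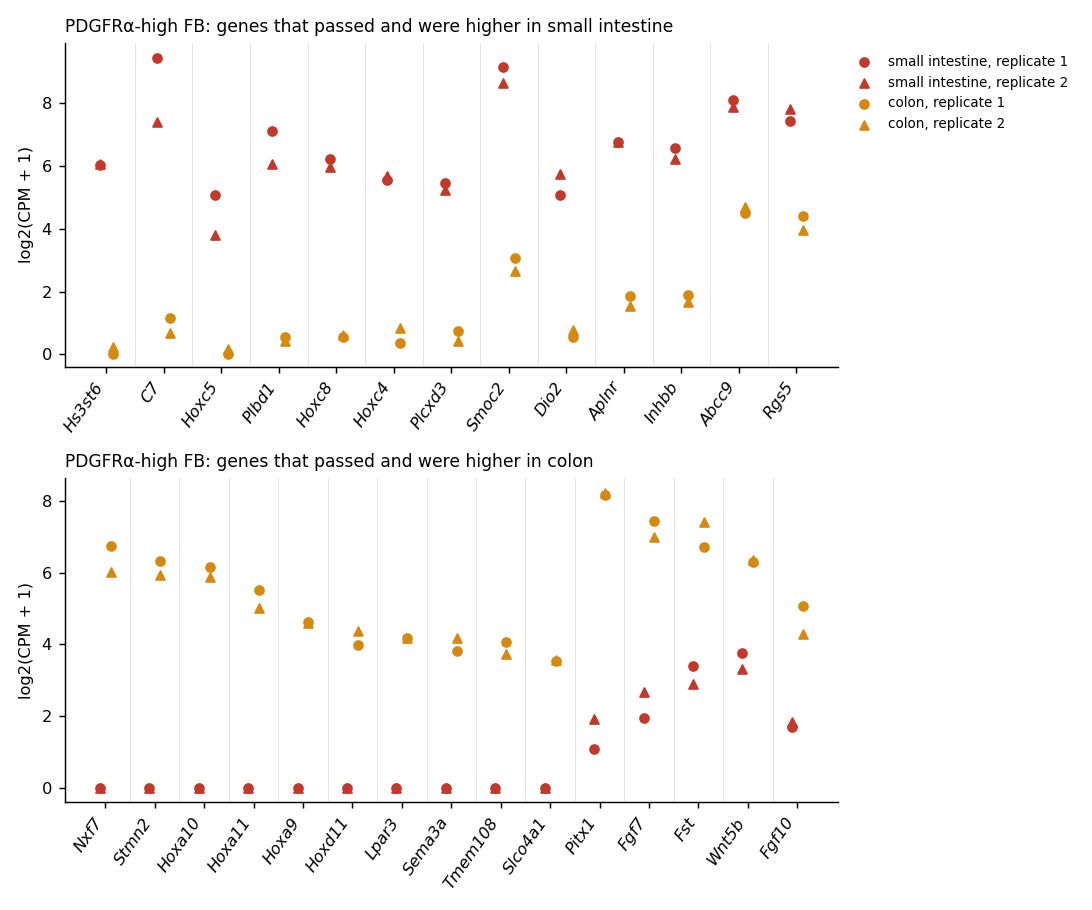
Summed UMIs of the PDGFRα-high FB as log2(CPM + 1) (vertical axis) for genes that passed as higher in small intestine (upper panel) or in colon (lower panel), with colour for the intestine, circles for replicate 1 and triangles for replicate 2. The small intestinal and colonic libraries do not overlap for any gene shown, and in the lower panel Nxf7, Stmn2, Hoxa10, Hoxa11, Hoxa9, Hoxd11, Lpar3, Sema3a, Tmem108 and Slco4a1 lie at 0 in the small intestine.

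The difference between members and all other cells was itself compared between the intestines by an interaction term. It passed for 166 of 13847 genes (1.2% of genes tested), with the member effect higher in the colon for 103 (0.744%) and lower for 63 (0.455%). Against other FB 1127 genes passed. Without small intestinal replicate 1 or 2 the count was 7 and 10, and with 2 markers as the minimum it was 2. Abcc9 was among the genes that passed. It stood at 270 and 234 CPM in the small intestinal members against 9.15 and 6.53 CPM in the other cells, and at 21.7 and 25.0 CPM in the colonic members against 25.0 and 16.0 CPM, so that members and other cells did not overlap in the small intestine and did in the colon (difference of log2 fold changes -4.54, SE 0.30, adjusted p = 0.0171). Rbp4 set the members apart in both intestines, with 375 and 311 CPM against 10.4 and 16.2 CPM in the small intestine and 646 and 430 CPM against 278 and 198 CPM in the colon (-3.25, SE 0.31, adjusted p = 0.0316).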

How the data were processed

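Droplet single-cell RNA sequencing measured MSC in 4 libraries, 2 per intestine. The deposited matrices hold UMI counts per gene and barcode that the authors made with Cell Ranger (3.0.2 in the file headers of replicates 1, 3.1.0 in those of replicates 2) against mm10. The submitters' processing notes also name Seurat 3. Which library used the 3′ or the 5′ kit is not given in the sources used here.

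Members and gene lists were chosen with earlier results of these data known. Cells were filtered as in the report (32216 kept), doublets were called with scrublet (scanpy 1.11.5, 0.8% expected per 1000 cells) and kept except in 1 alternative, and counts were summed per library and cell group. CPM are summed UMIs per 1000000. edgeR 4.0.16 (R 4.3.3) fitted its quasi-likelihood test with TMM scaling and filterByExpr to 8 sums (members and other cells of 4 libraries) with library as a block, or to the 4 member sums for the intestines. The 10 genes of the rule were left out of the fits, and p-values were Benjamini-Hochberg adjusted over all genes tested. "Other FB" held at least 1 UMI for 3 or more of Col1a1, Col1a2, Col3a1, Dcn and Lum. They held a UMI for at most 1 of Pecam1, Cdh5, Ptprc, Jchain, Myh11, Actg2, Rgs5 and Kit. Clusters came from Leiden clustering (resolution 0.6, 15 components, 1500 variable genes). Gene positions are GENCODE's.

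Named genes were the 12 largest rises and falls that passed with 1 direction in both libraries and whose higher group held 50 UMIs or more per library (10 each between the intestines), besides members of the lists; clones, predicted genes, mitochondrial, ribosomal and immunoglobulin genes went unnamed. Depth is given in the report. The tests were also run on simulated counts with 1 spread for all genes and no library effect. That check does not cover the differences between the libraries seen here. Alternatives were 2 or 4 markers, doublets removed, 1000 genes per cell, thinning to 1000 UMIs, DESeq2 1.42.0, no low-count filter, other blocks, other FB as comparison, each library left out and, chosen after seeing the data, members with Fbln1, C3 and Sfrp1 removed. The values of 1 gene of the lists are not reported here.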

Additional observations from a re-analysis of the deposited data

Results flagged for a closer look

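For 21 of the genes listed by role or by the naming rule, the difference between PDGFRαhi FB and all other cells of the same library was larger in 1 intestine than in the other by edgeR's interaction term (adjusted p under 0.05). Values below are the member effect in the colon minus that in the small intestine, on the log2 scale, and their causes were not tested. The effect was lower in the colon for Dio2 (-6.20), Plbd1 (-5.0), Pla1a (-4.77), Plcxd3 (-4.75), Abcc9 (-4.54), C7 (-4.00), Marc1 (-3.41), Rbp4 (-3.25), Des (-2.59), Col4a6 (-2.30), Col12a1 (-2.06), Il34 (-1.73) and Col4a5 (-1.69). For C7, Plbd1, Dio2 and Plcxd3 the colonic members held under 2 CPM in both libraries.

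The effect was higher in the colon for Slpi (9.95), Fgf7 (3.86), Ereg (3.31), Pitx1 (3.31), Cxcl13 (2.86), Areg (2.55), Bmp2 (2.47) and Bambi (1.37). Fgf7 and Ereg fell in the small intestinal members and stood higher than in the other cells in the colon: Fgf7 was at 171 and 126 CPM in colonic members against 64.4 and 47.6 CPM, and Ereg at 396 and 627 CPM against 120 and 209 CPM. Bmp2 stood at 781 and 725 CPM in colonic members against 99.3 and 169 CPM, while in the small intestine it was at 144 and 191 CPM against 104 and 168 CPM. Slpi moved with the other cells of small intestinal replicate 1, where it stood at 95.2 CPM against 2.05 CPM in those of replicate 2. With other FB as the comparison the differences passed for all of these genes except Cxcl13 (adjusted p = 0.123), and with the remaining members of both intestines for all 21.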

How the results depend on the processing

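The mean share of members over both libraries was 9.71% (SD 1.15), and it moved to 20.4% with 2 markers, 6.72% with 4, 4.17% after thinning and 8.14% without the members led by Fbln1, C3 and Sfrp1. It ran from 8.90 to 10.5% when 1 library was left out, a setting added after the data had been seen. Against all other cells, 2071 genes passed in PDGFRαhi FB. The count was 136 with 2 markers, 933 when a log2 fold change beyond 1.5 was also required and 4031 against other FB. Leaving out 1 library gave 531 to 2184. For the intestines, 114 genes passed, against 70 with 2 markers, 486 with DESeq2, 517 with no low-count filter and 198 without the Fbln1-led members. Leaving out 1 library gave 4 to 304. The interaction passed for 166 genes, against 2 with 2 markers, 334 after thinning, 516 with DESeq2, 368 with no filter, 1127 against other FB and 439 without the Fbln1-led members. Leaving out 1 library gave 7 to 274. The cause of these changes was not tested.

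Without the library term (no replicate block) the member comparison gave 139 genes. With the replicate number as a block, the comparison of intestines gave 830. The replicate deviations of members correlated between the intestines (r = 0.72 over 12213 genes), but with 2 pairs this does not show that the numbers pair the samples.

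Of the genes that passed in at least 1 of the fits compared, 4 turned direction. Against other FB, Actg2 (2.96) and Des (0.61) were higher in the members, and with 2 markers Cgref1 (1.37) and Atp1b1 (0.0492) were, without passing. The rule for other FB limited Actg2, so its turn follows in part from that rule. Bmp2, Bmp4, Des and Cnn1 against other cells, and Acta2 between the intestines, also changed sign where neither fit called them. Of 90 genes described against all other cells, 64 kept their direction but no longer passed with 2 markers, besides the 2 that turned, and so did 63 without the library term, 47 without small intestinal replicate 1 and 33 without replicate 2. With doublets removed 2 no longer passed, and with DESeq2 2 did not.

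Depth limited the small counts. Members held 1766038 and 3915620 UMIs, so a gene with 0 UMIs there was below 0.528 CPM (3 UMIs over both libraries) by counting error alone, which does not show it to be absent.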
